A study of Homo sapiens with 8 samples.

Results

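OVCAR-3 is an established human ovarian adenocarcinoma cell line grown from malignant ascites. Its response to pI:pC (polyriboinosinic:polyribocytidylic acid), a synthetic double-stranded RNA, was read from the 2 arrays labelled OVCAR-3 among the 8 arrays of the series, 1 from cells given pI:pC and 1 from untreated cells. All probe sets named by 1 gene were taken, which gave 19064 of the 22277 probe sets and 11963 genes. The other 3 lines, CAOV-3, SKOV-3 and DOV-13, have the same pair of arrays each and were used as a reference for spread. All cells were kept in the same medium with fetal bovine serum, and pI:pC was put into that medium. Dose and time of exposure are not stated for the single arrays, nor is it said whether an array held 1 culture or a pool. The values are log2 expression levels, and a difference is treated minus untreated on that scale, so that a difference of 1 is 2-fold.

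Double-stranded RNA in a cell is a sign of viral infection. Receptors in the cytoplasm (the helicases RIG-I and MDA5) and in endosomes (TLR3) bind it and switch on transcription factors of the IRF and NF-kB families, which drive interferon genes and inflammatory cytokines. Secreted interferon then acts through its receptor, the JAK kinases and a STAT complex that holds IRF9, and this complex binds the interferon-stimulated response element in the promoters of many antiviral genes. In epithelial tumour cells the same stimulus is known for raising antigen presentation and, in some lines, for cell death.

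In OVCAR-3 the genes that stood out were nearly all interferon-stimulated antiviral genes, and they were higher. The count took genes with a difference of at least 1 whose higher array reached the level of the median gene of the pair (6.66). It held 26 genes higher after pI:pC, which is 0.217% of all genes, and 0 genes lower (0%). All 26 belong to a listed group, 20 to the antiviral effectors, and the others are 2 sensors, 2 transcription factors and 2 chemokines. The lists hold 535 of the 11963 genes. They were chosen with earlier results of these data known, so this membership is only a description. Just inside the size were CXCL2 (1.23), PARP12 (1.17) and EIF2AK2 (1.13), and just outside were IFITM3 (0.98), USP18 (0.98) and RIGI (0.91). With no replicate in the line there is no test of these differences. For scale, the central 95% of all differences in OVCAR-3 lay between -0.35 and 0.34, and the median was -0.01. In these bulk samples, more responding cells and more RNA per responding cell cannot be told apart.

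**Figure D1:**
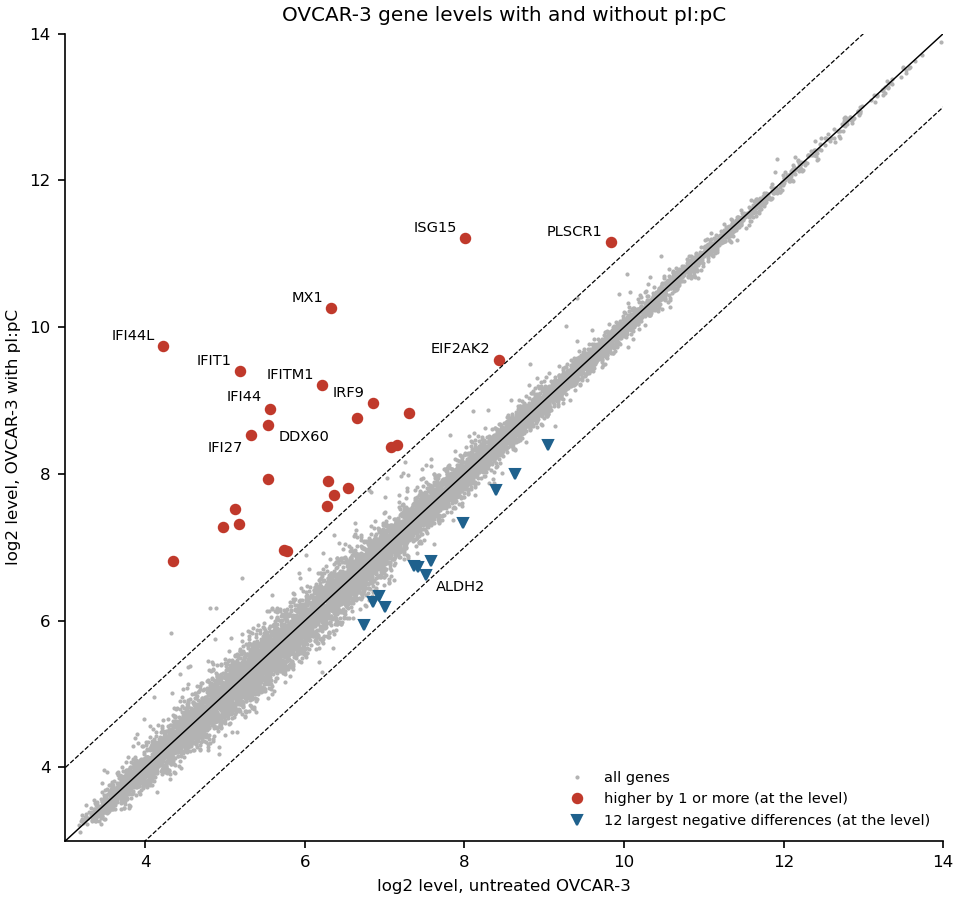
Log2 level of each of the 11963 genes in untreated OVCAR-3 (horizontal) against OVCAR-3 with pI:pC (vertical), with the line of equality and dashed lines at a difference of 1. The 26 genes higher by 1 or more (red) run from IFI44L at 4.22 and 9.74 to EIF2AK2 at 8.43 and 9.56, and the 12 genes with the largest negative difference among those at the level of the median gene (blue) stay within 1 of equality.

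Promoter windows of the genes with the largest differences hold letters that match the core of the interferon-stimulated response element. The windows printed here were chosen for holding such a match. They are RefSeq windows of GRCh38.p14, from 250 bases before to 50 bases after the transcript start, in the direction of the gene. Capitals mark each match to the core of the element, GAAA, any 2 bases and GAAA again, or to its reverse complement, TTTC, any 2 bases and TTTC.
IFI44L, chr1:78620198-78620497, plus strand: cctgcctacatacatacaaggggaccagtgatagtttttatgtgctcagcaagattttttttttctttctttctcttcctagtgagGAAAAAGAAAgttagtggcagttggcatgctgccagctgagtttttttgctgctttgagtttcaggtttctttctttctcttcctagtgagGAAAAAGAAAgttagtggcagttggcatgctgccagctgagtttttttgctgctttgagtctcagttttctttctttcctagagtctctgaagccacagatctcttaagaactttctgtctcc
IFIT1, chr10:89392373-89392672, plus strand: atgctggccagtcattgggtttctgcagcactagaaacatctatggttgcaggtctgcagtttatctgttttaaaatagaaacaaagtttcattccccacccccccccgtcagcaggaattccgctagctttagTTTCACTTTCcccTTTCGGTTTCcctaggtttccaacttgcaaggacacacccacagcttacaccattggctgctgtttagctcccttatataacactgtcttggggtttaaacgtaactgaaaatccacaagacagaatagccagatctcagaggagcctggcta
MX1, chr21:41420308-41420607, plus strand: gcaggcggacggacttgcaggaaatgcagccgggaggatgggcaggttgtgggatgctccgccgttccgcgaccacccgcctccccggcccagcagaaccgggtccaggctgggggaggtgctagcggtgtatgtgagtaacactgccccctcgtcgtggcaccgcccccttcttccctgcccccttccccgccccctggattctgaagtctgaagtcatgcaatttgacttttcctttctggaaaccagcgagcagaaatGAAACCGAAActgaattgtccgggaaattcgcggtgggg
IFI44, chr1:78649539-78649838, plus strand: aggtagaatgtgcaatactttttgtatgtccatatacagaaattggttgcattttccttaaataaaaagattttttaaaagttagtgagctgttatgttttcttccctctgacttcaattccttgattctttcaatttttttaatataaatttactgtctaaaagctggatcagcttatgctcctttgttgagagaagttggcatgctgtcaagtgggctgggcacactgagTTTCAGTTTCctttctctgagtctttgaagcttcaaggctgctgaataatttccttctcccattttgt

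The core stood in the windows of 18 of the 23 counted genes that have one (78.3%), against 395 of 9563 measured genes (4.13%). TRIM22, LAMP3 and IRF7 had no window in the table, and the windows of OAS1, IRF9, CXCL8, HERC6 and CXCL2 did not hold these letters. For each of the 18 genes the first of its windows that hold the core was taken, which gave 34 matches in all. Of these, 33 started before the transcript start, at most 164 bases from it. Searched over all genes of the table, the core was in 4.38%. A window holding an NF-kB motif was found for 3 of the 23 counted genes (13%) and for 12.9% of the measured genes. These are matches of letters, counted on both strands and allowing overlaps, and binding was not measured.

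The 2 matches of IFI44L are identical over 30 bases and lie 91 bases apart. In the MX1 window shown, 1 of 3 for that gene, the match starts 11 bases after the annotated transcript start. Single matches from other counted genes, shown with 10 bases on each side and read along the strand that carries the core, show how the free bases vary.
ISG15, chr1:1013380-1013409, strand of the gene: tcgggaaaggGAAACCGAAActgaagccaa
IFI27, chr14:94110618-94110647, opposite strand: cattttccagGAAACCGAAActgcagacat
DDX60, chr4:168318786-168318815, strand of the gene: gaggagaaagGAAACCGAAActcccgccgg
IFITM1, chr11:314024-314053, strand of the gene: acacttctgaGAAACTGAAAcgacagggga
IFIH1, chr2:162318686-162318715, strand of the gene: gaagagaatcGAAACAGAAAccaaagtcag
IFI6, chr1:27672288-27672317, strand of the gene: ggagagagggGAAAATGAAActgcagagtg
OAS3, chr12:112938321-112938350, strand of the gene: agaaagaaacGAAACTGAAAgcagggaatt
IFIT5, chr10:89414513-89414542, opposite strand: gtaagcttcaGAAACCGAAActtaatagaa
EIF2AK2, chr2:37156967-37156996, strand of the gene: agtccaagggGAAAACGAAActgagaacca
GAAACCGAAA was the most frequent form, with 8 of the 34 matches. Among antiviral effector genes with a window, the core stood in 19 of 21 with a difference of at least 1 (90.5%), in 7 of 14 between 0.3 and 1 (50%) and in 5 of 11 under 0.3 (45.5%). These lists were drawn from known interferon-stimulated genes, and this split by outcome is a description with no test.

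Of the double-stranded RNA sensors and their adaptors, the helicase MDA5 (IFIH1) stood furthest out. IFIH1 was 4.35 in the untreated and 6.82 in the treated array, a difference of 2.47 (5.52-fold). CAOV-3 had a like value (2.46), while SKOV-3 had 0.38 and DOV-13 -0.08. A second, dimmer IFIH1 probe set differed by only 0.15. EIF2AK2 encodes PKR, the kinase that stops translation on contact with double-stranded RNA. It went from 8.43 to 9.56, a difference of 1.13 (2.18-fold), above CAOV-3 (0.53), and its other probe set differed by 0.84.

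RIG-I itself (RIGI) went from 6.83 to 7.75 and, at 0.91 (1.89-fold), lay just under the size counted. DHX58, a regulator of both helicases, differed by 0.44, and ADAR, which edits double-stranded RNA, by 0.50. TLR3 was level at 4.43 and 4.53, whereas in CAOV-3 it went from 6.67 to 7.67. The adaptors and kinases further down were close to 0, among them MAVS (0.05), TICAM1 (0.08), TBK1 (-0.07) and IKBKE (0.11). Of the 19 measured members of this list 12 were positive, where 46.3% of all genes were, and 5 were higher by 0.3 or more, where 3.43% of all genes were. The list median was 0.089, so a few members carry the group.

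Transcripts of interferon itself did not stand out. IFNB1, the first interferon made by most cells, was 4.55 untreated and 4.34 treated. The 14 measured interferon genes had a median difference of 0.003, from -0.21 (IFNB1) to 0.18 (IFNA21). Of the 14, 7 were above 0, where 46.3% of all genes were. None of them reached the level of the median gene in either array, so the arrays bear little on these transcripts. Nothing in the pair tells at what time after pI:pC the RNA was taken.

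In the receptor and JAK-STAT list 1 of 20 measured members was counted, where 0.217% of all genes were. IRF9, the DNA-binding part of the interferon-driven complex, went from 6.86 to 8.97, a difference of 2.11 (4.32-fold), and it was larger than in CAOV-3 (0.81), SKOV-3 (-0.03) and DOV-13 (-0.21). USP18, which removes ISG15 from proteins and dampens the receptor, went from 6.81 to 7.78 and lay just outside the count at 0.98. The receptor chain IFNAR1 was lower at 5.74 and 5.35 (-0.38) and the kinase JAK2 at 5.42 and 5.07 (-0.35, with -0.01 by its other probe set). Both genes were under the median gene in both arrays. IFNAR2 (-0.12), JAK1 (0.03) and TYK2 (-0.06) were near 0. SOCS1 and SOCS3, feedback inhibitors, differed by -0.08 and 0.15. The 20 members had a median of 0.016 and 11 were positive, where 46.3% of all genes were.

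Of 7 interferon regulatory factors only IRF7, which amplifies interferon production, was counted (0.217% of all genes were). It went from 7.08 to 8.36, a difference of 1.29 (2.44-fold), close to CAOV-3 (1.16). IRF1 differed by 0.12, IRF3 by -0.03 and IRF5 by -0.36, and the list median was -0.029.

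The antiviral effectors held the largest differences. Their 7 lists hold 63 measured genes of 86 listed. Of the 63, 56 were positive (46.3% of all genes were) and 41 were higher by 0.3 or more (3.43% of all genes). Of the same 63, 0 were lower by 0.3 or more (4.16% of all genes were) and 20 were counted (0.217% of all genes). IFI44L, an interferon-induced gene of little known function, had the largest difference of all genes, from 4.22 to 9.74, or 5.52 (45.8-fold). Its relative IFI44 went from 5.57 to 8.89, a difference of 3.32 (9.97-fold), and its second probe set differed by 1.81. IFI27, a small mitochondrial protein, went from 5.33 to 8.53, a difference of 3.20 (9.17-fold), against 0.99 in CAOV-3. IFI6 went from 4.97 to 7.28 (2.31), IFI35 from 5.92 to 6.65 (0.73) and the DNA sensor IFI16 from 4.48 to 4.57 (0.09). All 6 measured genes of this group were positive and 4 were counted, with a median of 2.75.

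The IFIT proteins bind viral RNA, and the OAS enzymes make the messenger that activates RNase L. IFIT1 went from 5.19 to 9.40, a difference of 4.22 (18.6-fold). IFIT5 went from 7.30 to 8.83 (1.53) and IFIT3 from 6.36 to 7.71 (1.35), while IFIT2 was nearly level at 6.04 and 6.29 (0.26). OAS1 went from 5.18 to 7.32, a difference of 2.14 shown by both of its probe sets, and OAS3 from 6.65 to 8.76 (2.11). OAS2 (5.22 and 5.33) and OASL (5.65 and 5.56) stood apart from these: neither differed by more than 0.11 in size, and their other probe sets differed by 0.30 and 0.13. In CAOV-3 the same pair of genes was higher by 1.57 and 1.16.

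MX1, a GTPase that traps viral nucleocapsids, went from 6.33 to 10.26, a difference of 3.92 (15.2-fold), whereas its relative MX2 differed by 0.18. IFITM1, which blocks the fusion of viruses with cell membranes, went from 6.22 to 9.21, a difference of 2.99 (7.95-fold), against 0.75 in CAOV-3 and 0.78 in SKOV-3. IFITM3 went from 9.41 to 10.40 (0.98) and IFITM2 from 9.27 to 10.02 (0.75). The 3 IFITM genes are close in sequence, and signal shared between their probe sets was not tested.

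The ISG15 system attaches the small protein ISG15 to other proteins. All of its 5 measured members were higher by 0.3 or more, where 3.43% of all genes were. ISG15 went from 8.01 to 11.21, a difference of 3.20 (9.21-fold). The ligase HERC5 went from 6.30 to 7.90 (1.60) and HERC6 from 6.54 to 7.81 (1.27). The conjugating enzyme UBE2L6 went from 8.11 to 8.86 (0.75). ISG15, HERC5, HERC6, UBE2L6 and the protease USP18 that removes ISG15 were all higher in the treated array.

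Among other effectors, the helicase-like DDX60 went from 5.54 to 8.67 (3.13, 8.76-fold), and LAMP3, a lysosomal membrane protein, from 5.55 to 7.93 (2.39). TRIM22, a ubiquitin ligase that restricts viruses, went from 5.13 to 7.53, a difference of 2.40 (5.28-fold). Its relative TRIM14, which helps MAVS signal, went from 7.16 to 8.39 (1.23), but its 4 probe sets ranged from -0.28 to 1.23. PARP12, an antiviral ADP-ribosyltransferase, went from 5.78 to 6.95 (1.17). The phospholipid scramblase PLSCR1 went from 9.84 to 11.16 (1.32), with 1.57 by its other probe set.

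RSAD2 (viperin), which makes an antiviral nucleotide, went from 4.82 to 6.17 (1.35), and SAMD9, which restricts poxviruses, from 4.32 to 5.84 (1.52). BST2 (tetherin), which holds new virus particles on the cell and was picked after its value was seen, went from 4.88 to 6.17 (1.29). These passed the size but stayed under the level of the median gene. With them and CXCL10 the count without the level was 30 (0.251%). The guanylate-binding and APOL genes were less far out, with GBP1 at 0.60, GBP2 at 0.35, APOL2 at -0.22 and a list median of 0.090.

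**Figure D2:**
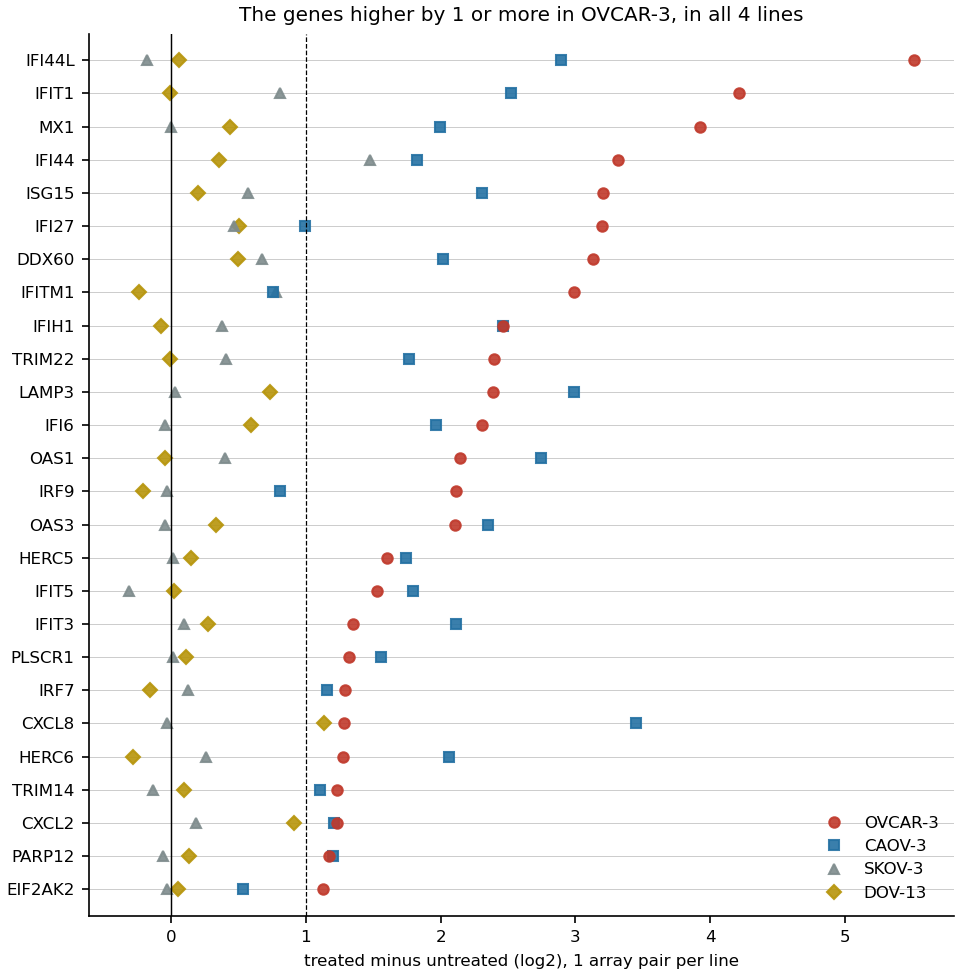
Treated minus untreated (log2) of the 26 counted OVCAR-3 genes, 1 array pair per line, with a dashed line at 1. OVCAR-3 (circles) runs from 1.13 to 5.52 and CAOV-3 (squares) from 0.53 to 3.45, while among SKOV-3 (triangles) and DOV-13 (diamonds) only IFI44 at 1.48 and CXCL8 at 1.13 pass 1.

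CAOV-3 was the other line with a broad difference, with 101 genes higher (0.844%) and 16 lower (0.134%). SKOV-3 had 1 and 1 (0.00836% each), and DOV-13 had 2 (0.0167%) and 1 (0.00836%). Of the 26 OVCAR-3 genes 22 were also counted in CAOV-3, which is 84.6% of the one list and 21.8% of the other. The 26 were picked by a large OVCAR-3 difference, which favours a larger value in this line. By the probe set used for each gene, 16 of the 26 had a larger difference in OVCAR-3 than in any of the other 3 lines. Of all genes 17.5% had. The 16 include IFI44L, IFIT1, MX1, IFI27, IFITM1 and IRF9, and narrowly IFIH1 (2.47 against 2.46 in CAOV-3) and CXCL2 (1.23 against 1.21). LAMP3, OAS1, OAS3, HERC5, IFIT5, IFIT3, PLSCR1, HERC6, CXCL8 and, narrowly, PARP12 were larger in CAOV-3. Other probe sets reversed the order for IFI44 (1.81 against 1.89 in CAOV-3) and IFIH1 (0.15 against 0.59). That of EIF2AK2 kept it (0.84 against 0.78), and those of TRIM14 were mixed. PLSCR1 was larger in OVCAR-3 by its other probe set, whereas OAS1, IFIT5 and CXCL8 stayed larger in CAOV-3 by theirs. The untreated level was higher in CAOV-3 for all 26, against 47.1% of all genes, for example 11.85 against 5.33 for IFI27, 12.07 against 6.22 for IFITM1 and 7.84 against 4.22 for IFI44L. In SKOV-3 it was higher than in OVCAR-3 for 12 of the 26 (49.5% of all genes) and in DOV-13 for 21 (50.9%). The 26 were chosen by treated minus untreated in OVCAR-3, which favours low untreated values in that line. In the untreated OVCAR-3 array 19 of them were under the median gene. The part of these starting levels in the size of the differences was not tested.

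Over all 63 effectors the order was the other way: 17 were larger in OVCAR-3, where 50.5% of all genes were, and 46 in CAOV-3. The medians were 0.68 in OVCAR-3 and 1.10 in CAOV-3. Without the level, 33 of the 63 were higher by 1 or more in CAOV-3, where 0.978% of all genes were. In OVCAR-3 20 of the 33 were also higher by 1 or more, where 0.251% of all genes were. Of the 33, 7 were under 0.5 in OVCAR-3: OAS2, OASL, and 5 others named after their values were seen. The exonuclease gene ISG20 went from 6.24 to 6.65 in OVCAR-3 and from 7.23 to 10.06 in CAOV-3. XAF1, a pro-apoptotic binder of XIAP, went from 4.87 to 5.07 in OVCAR-3 and from 7.72 to 9.97 in CAOV-3. RTP4 went from 4.20 to 4.49 and from 6.63 to 8.65 in the same order of lines, SAMHD1 from 5.83 to 6.13 and from 6.71 to 8.24, and GMPR from 4.46 to 4.84 and from 5.47 to 6.57. All 7 also had a lower untreated value in OVCAR-3 than in CAOV-3.

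Whether OVCAR-3 differed from the other lines was tested with limma on the 4 within-line differences, OVCAR-3 minus the mean of the other 3 (two-sided, p-values adjusted by Benjamini-Hochberg over the 11963 genes). By limma 0 genes were above and 0 below at an adjusted p of 0.05 (0% called), and 125 and 231 at an unadjusted p of 0.05. The smallest adjusted p was that of IFI27 (limma adjusted p = 0.362), whose OVCAR-3 difference exceeded the mean of the others by 2.54 (SE 0.24, 95% interval 1.96 to 3.12). CAOV-3 decides this count. Without it 6 genes were above (0.0502%): IFI44L by 5.58 (limma adjusted p = 0.00136), IFI27 by 2.71 (0.0163), MX1 by 3.70 (0.0163), DDX60 by 2.54 (0.0238), ISG15 by 2.82 (0.0295) and IRF9 by 2.23 (0.0331). That fit sets OVCAR-3 against SKOV-3 and DOV-13 only, with 1 residual degree of freedom, and takes the lone OVCAR-3 difference to vary like theirs.

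**Figure D3:**
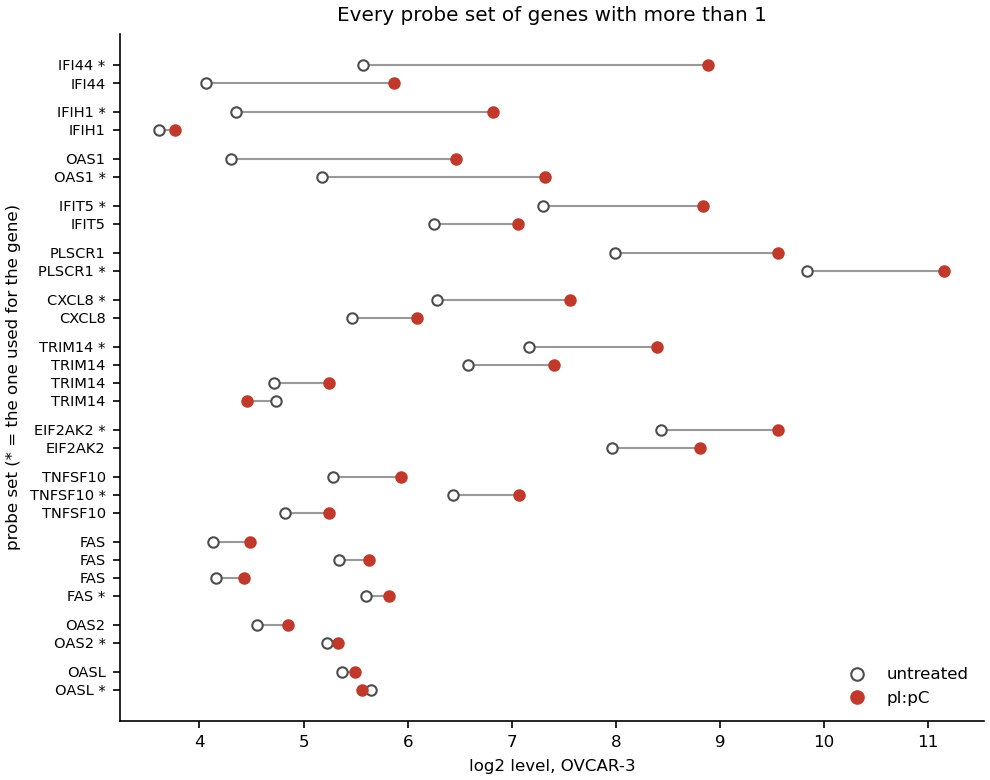
Log2 level in untreated (open) and pI:pC-treated (filled) OVCAR-3 for every probe set of the 8 counted genes with more than 1 and of TNFSF10, FAS, OAS2 and OASL, the star marking the probe set used. Of the 18 probe sets of the 8 counted genes 11 differ by 1 or more, and the second IFIH1 probe set (0.15) and 1 of TRIM14 (-0.28) do not follow.

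Probe sets of a gene mostly pointed the same way where the difference was large. Of the 26 counted genes 8 have more than 1 probe set, and in 7 of them every probe set was higher. In 3 (IFI44, OAS1 and PLSCR1) every probe set was higher by 1 or more. By probe sets in place of genes, 29 were higher (0.152%) and 2 were lower (0.0105%). The last were 1 of EP300, which encodes a histone acetyltransferase, and 1 of PDE6D, which encodes a carrier of prenylated proteins. The EP300 probe set went from 6.71 to 5.58 (-1.12) while its other differed by -0.02, and that of PDE6D went from 6.95 to 5.93 (-1.02) while its other differed by 0.27.

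Among cytokines and chemokines 2 genes were counted (0.217% of all genes were), both attractants of neutrophils. CXCL8 (interleukin 8) went from 6.28 to 7.56, a difference of 1.28 (2.43-fold), with 0.62 by its other probe set and 3.45 in CAOV-3. CXCL2 went from 5.73 to 6.96, a difference of 1.23 (2.35-fold), level with CAOV-3 (1.21) and above SKOV-3 (0.19) and DOV-13 (0.91). CCL20, which attracts dendritic and T cells, went from 4.57 to 5.38 (0.81), under the median gene in both arrays.

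The T cell attractants that interferon switches on were less far out than in CAOV-3. CXCL10 went from 5.22 to 6.58 (1.36, 2.57-fold) and CXCL11 from 3.48 to 3.97 (0.49), where CAOV-3 had 3.87 and 6.13. IL6 differed by 0.37 and CCL5 by 0.00, against 2.60 and 1.18 in CAOV-3. Of the 37 measured cytokines and chemokines 28 were positive (46.3% of all genes were), with a median of 0.181. Of them 13 were higher by 0.3 or more and 2 were lower by as much, against 3.43% and 4.16% of all genes. Only 6 of the 37 reached the level of the median gene.

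Among NF-kB subunits, inhibitors and targets 0 genes were counted, where 0.217% of all genes were. By the probe set used for each gene, RELB, a subunit of the alternative pathway, had the largest difference in size. It was lower, from 6.18 to 5.44 (-0.74), and under the median gene in both OVCAR-3 arrays. In CAOV-3 (0.97), SKOV-3 (0.64) and DOV-13 (0.35) it was higher. The inhibitors NFKBIA (10.18 and 10.39) and TNFAIP3 (7.47 and 7.66), which NF-kB itself switches on, differed by 0.21 and 0.19, against 1.09 and 1.69 in CAOV-3. The other TNFAIP3 probe set went from 6.01 to 6.90, a difference of 0.89 that is larger in size than that of RELB, against 2.82 in CAOV-3, so the 2 TNFAIP3 probe sets disagree on the size. IER3 differed by 0.41 and the protease gene PLAU by 0.35. The 20 members had a median of 0.119 in OVCAR-3 and 0.531 in CAOV-3. In OVCAR-3 12 of them were positive, where 46.3% of all genes were. Immediate early genes lay between FOSB at -0.38 and IER5 at 0.31.

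Genes of MHC class I antigen presentation were higher together but by small steps. Of 18 measured members 17 were positive (46.3% of all genes were) and 12 were higher by 0.3 or more (3.43% of all genes were). Of the same 18, 0 reached 1 (0.251% of all genes did). Signal shared between the probe sets of HLA class I genes was not tested. The peptide transporter TAP1 went from 6.02 to 6.89 (0.87, 1.83-fold), the immunoproteasome subunits PSMB9 from 5.21 to 5.82 (0.61) and PSMB8 from 6.62 to 7.16 (0.54), and HLA-C from 9.93 to 10.46 (0.52). The exception was TAPBPL, a peptide editor named after its value was seen, from 6.03 to 5.56 (-0.47). The list median was 0.349, against 0.907 in CAOV-3 and -0.01 over all genes. In the promoter windows the interferon response core was in 10 of 16 genes of this list (62.5%, against 4.13% of measured genes) and the NF-kB motif in 7 of 16 (43.8%, against 12.9%). Of the 13 class II genes 7 were positive (46.3% of all genes were), with a median of 0.075. CD74, the invariant chain, had the largest class II difference of the probe sets used, from 6.23 to 6.92 (0.70). The protease gene CTSS differed by 0.29 and, by its other, dimmer probe set (4.10 and 4.84), by 0.74, while HLA-DMA was lower by 1 probe set (-0.48).

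**Figure D4:**
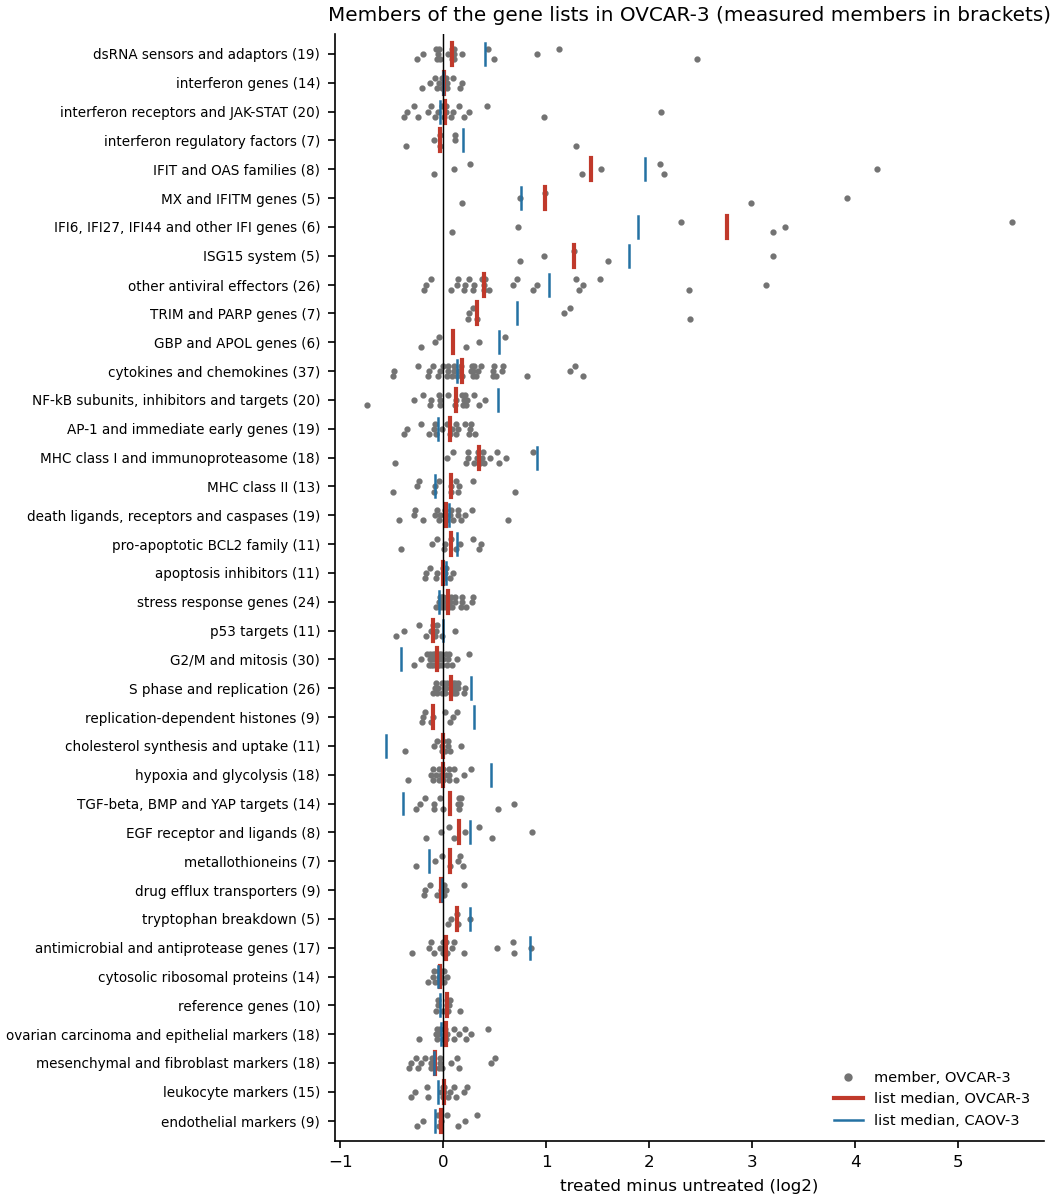
Treated minus untreated (log2) in OVCAR-3 for every measured member of the 38 lists (grey points), with the list median in OVCAR-3 (red) and CAOV-3 (blue), and the number measured in brackets. Medians past 0.3 are those of 6 of the 7 antiviral effector lists and of MHC class I (0.349), and the largest of the other list medians is that of the cytokines (0.181).

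Of 19 measured death ligands, receptors and caspases 11 were positive, where 46.3% of all genes were. As a group they were near 0, with a median of 0.027. TNFSF10 (TRAIL), the ligand of the death receptors, was the exception. It went from 6.43 to 7.07 (0.63, 1.55-fold), and its 3 probe sets gave 0.43 to 0.65, whereas the 3 ran from -0.00 to 0.23 in CAOV-3, from -0.07 to 0.23 in SKOV-3 and from -0.12 to 0.03 in DOV-13. Its receptor TNFRSF10B differed by 0.14, the decoy receptor TNFRSF10D by -0.43, FAS by 0.22 and CASP8 by 0.01.

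Among pro-apoptotic BCL2 genes, PMAIP1 (NOXA) went from 8.26 to 8.63 (0.37) and BIK from 5.94 to 6.28 (0.34). BAX was lower by 1 probe set (-0.41) and higher by the other (0.24). The apoptosis inhibitors lay within 0.17 of 0 in size, with MCL1 at 0.03, BCL2L1 at 0.09, XIAP at 0.02 and CFLAR at -0.17. Of 11 measured p53 targets 1 was positive, where 46.3% of all genes were. The farthest of the 11 were PLK3 (-0.46, with -0.19 by its other probe set), GDF15 (-0.38, with 0.14 by its other) and CDKN1A (-0.23). Stress response genes had a median of 0.048 and none passed 0.3 in size. Of all genes 3.43% were higher and 4.16% lower by as much.

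Cell cycle, metabolic and housekeeping genes differed little in OVCAR-3. The 30 G2/M genes had a median of -0.057 (CAOV-3 -0.411), the S phase genes 0.075, cholesterol synthesis -0.006 (CAOV-3 -0.555) and hypoxia genes -0.004 (CAOV-3 0.468). Drug efflux transporters had -0.021, and ABCB1 was 3.99 in both arrays. Cytosolic ribosomal proteins had -0.031 and reference genes 0.034, with ACTB at 0.06. Some single members stood out. The growth factor betacellulin (BTC) went from 4.88 to 5.74 (0.87), under the median gene in both arrays. THBS1 was higher by 0.69 to a treated level of 7.69 (0.01 to 0.76 by its other 4 probe sets). The complement component C3 went from 8.82 to 9.50 (0.68). S100A8 and LCN2, antimicrobial proteins of inflamed epithelium, went from 4.43 to 5.28 (0.85) and from 5.08 to 5.76 (0.69), under the median gene in both arrays.

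Far from the interferon genes, the lower end held no counted gene. The 12 with the largest negative difference, among genes whose higher array reached the median gene, ran from -0.89 to -0.59. None of the 12 was in a list. All 12 were below each of the other lines, as were 3105 of all 11963 genes. Picking the 12 by low OVCAR-3 differences favours that order. ALDH2, the mitochondrial aldehyde dehydrogenase, was first, from 7.52 to 6.63 (-0.89). SSX1, a cancer-testis antigen, went from 7.01 to 6.19 (-0.82). MCOLN3, a lysosomal cation channel, went from 6.74 to 5.94 (-0.80), and SKOV-3 showed -0.71. The semaphorin SEMA4F, the myosin MYO9B and the lipid anchor gene PGAP2 followed with -0.77, -0.68 and -0.66. Of the 12 genes 8 have further probe sets, 12 in all, of which 5 were below 0 and 1 was lower by 0.3 or more.

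**Figure D5:**
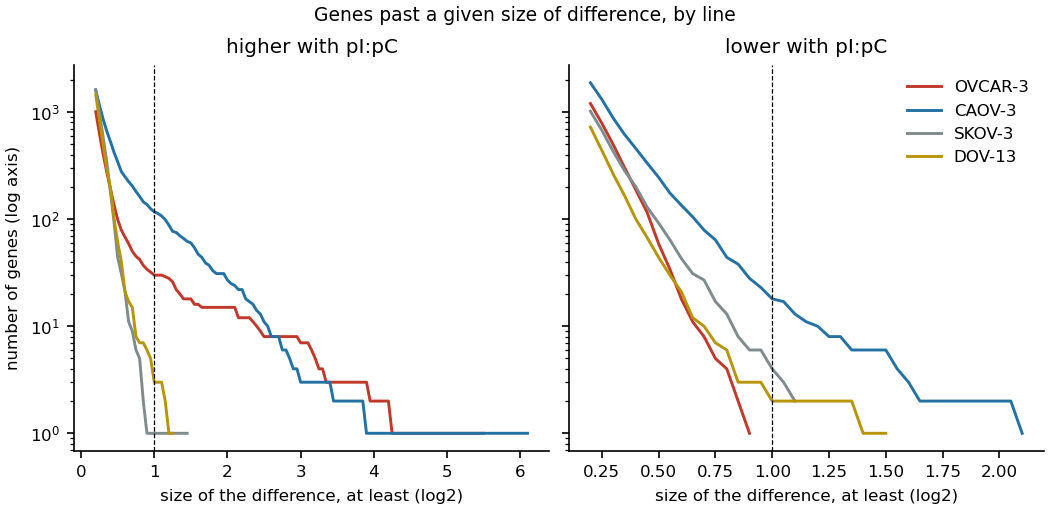
Number of genes (log axis) whose difference is at least the size on the horizontal axis, by line, for higher (left) and lower (right) genes at any level. In OVCAR-3 the higher side runs out to 5.52 with 30 genes past 1, and the lower side ends before 1.

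The label of the line was checked against markers. Of 18 ovarian carcinoma and epithelial markers 16 reached the level of the median gene, where 6133 of all 11963 genes did. Among the 16 were PAX8 (10.60 untreated), EPCAM (11.90), MUC16 (9.59 and 9.52), which encodes CA125, and CCNE1 (10.48). ESR1, at 6.38 and 6.14, stayed under that level. None of 15 leukocyte and 9 endothelial markers reached it, and their median differences were 0.005 and -0.021. Of 18 mesenchymal markers 4 reached it, and the highest untreated level was 9.95. Of the 18, 5 were positive (46.3% of all genes were), with a median of -0.077. VIM went from 5.30 to 5.80 (0.50) and TAGLN from 4.65 to 5.11 (0.46), both under the median gene. CDH2 went from 7.53 to 7.20 (-0.33) and COL1A2 from 6.24 to 5.92 (-0.32). The other probe sets of CDH2 and COL1A2 differed by 0.20 and 0.28. The 2 arrays correlated at 0.996 over all probe sets, and all 8 array medians lay between 6.19 and 6.30. The 3' minus 5' signal of beta-actin, a sign of RNA integrity, was 1.32 untreated and 1.26 treated in OVCAR-3, above the 0.58 to 0.94 of the other lines. The same measure for GAPDH was 0.12 and 0.08 in OVCAR-3, within the 0.07 to 0.30 of the other lines, and the part of these signals in the differences was not tested. Poly-A spikes added to the RNA differed by a median of 0.20 (-0.05 to 0.63) between the 2 arrays.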

How the data were processed

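RNA of OVCAR-3 and 3 other lines was measured on 8 Affymetrix arrays. Per the labels' protocols, total RNA was extracted with Trizol and biotin-labelled cRNA was hybridised. The deposited log2 levels come from RMA, as the submitters' processing notes say. RMA usually corrects background, equalises the arrays and summarises probes, and it compresses differences of dim probe sets. Neither its version nor whether it was run once on all arrays is stated. The number of arrays limits the precision.

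The platform annotation named 19064 probe sets by 1 gene, 1043 by several and 2108 by none, besides 62 controls. Symbols were checked against the RefSeq gene table (12 probe sets had no match). Of several probe sets of a gene the one brightest on average over the 8 arrays stands for it, and 4310 of 11963 genes have more than 1. Each probe set's level was compared between arrays, not with other probe sets, apart from the level filter.

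Groups came from the sample labels. The difference was treated minus untreated within a line, which removes the line's level as a block would. No test exists within a line. The sole test, lmFit and eBayes of limma 3.58.1 under R 4.3.3, ran on the 4 differences, with 2 residual degrees of freedom and a threshold of 0.05. It was tested on simulated data. Its p-values measure the spread between lines.

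The 38 lists hold 631 genes, 535 of them measured. Members and lists were chosen with earlier results of these data known. Named were the 20 largest positive and 12 largest negative differences at or above the median level, the 4 farthest members of each list, all measured members of the sensor, receptor, IRF, IFIT and OAS, MX and IFITM, IFI and ISG15 lists, all counted genes, and genes set by name. Genes named outside this rule are ISG20, XAF1, RTP4, SAMHD1, GMPR, BST2, TAPBPL, EP300, PDE6D, PAX8, EPCAM and those of the last part, picked after their values were seen.

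Promoter windows of 300 bases were taken from RefSeq (GRCh38.p14). Alternatives were other sizes, the level filter, the rule for probe sets, quantile normalization again, centring, other limma settings and leaving out a line. Some probe sets the annotation leaves unnamed were not analysed here by gene.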

Additional observations from a re-analysis of the deposited data

Results flagged for a closer look

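Probe sets outside the gene comparisons also held a signal above that of the untreated array. Of the 1043 probe sets named by several genes, 1 was higher by 1 or more in the treated OVCAR-3 array, with a difference of 2.49. Of the 2108 probe sets named by no gene, 2 were higher by 1 or more, the larger by 2.32. Neither kind held one that was lower by 1 or more. They were not assigned to a gene here, and they had no test.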

How the results depend on the processing

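The 26 higher genes were 48 at a size of 0.6, 17 at 1.5 and 7 with both arrays at or above the median gene, since 19 of them were under it in the untreated array. The 0 lower genes were 11 at 0.6, 2 by probe sets in place of genes and 1 (PDE6D) with the probe set of highest mean over the OVCAR-3 arrays. Quantile normalization again and centring on the median kept all 26 and moved the median of all genes by at most 0.0096. The mean of a gene's probe sets gave 23, of which 22 are shared: CXCL8, EIF2AK2, IFIH1 and TRIM14 dropped out and CXCL10 came in. With members at or above the median level only, which leaves fewer genes, the list medians were 2.108 for IFIT and OAS, 1.987 for MX and IFITM, 3.257 for IFI genes, 0.697 for other effectors, 0.525 for cytokines, 0.119 for IRFs (3 genes) and 0.696 for MHC class II (1 gene). With the mean of probe sets they were 1.259 for IFIT and OAS and 2.434 for IFI genes. The metallothionein median of 0.067 was -0.085 with either other rule for probe sets (their mean, or the highest over the OVCAR-3 arrays), and the cause was not tested. The other list medians moved by less than 0.132, the robust SD of all differences, under the alternatives run. Of 220 named genes 39 moved by more than that with the mean of probe sets, 26 with the most variable one, 5 with the highest over the OVCAR-3 arrays and 0 under the scalings.

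The limma count above the other lines was 6 without CAOV-3 and 0 without SKOV-3, without DOV-13 and under the other settings, with smallest adjusted p from 0.283 to 1.0. Signal over background is not known for these arrays, so differences of genes dim in both arrays, such as the interferon genes, are limited most. The limma test is paired by line, and the labels give no other pairing.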

Other observations

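Outside the lists, 9 genes were higher by 0.6 or more in OVCAR-3 with the level of the median gene, chosen here after their values were seen. NT5E, the ecto-enzyme CD73 that makes adenosine, went from 7.26 to 8.16 (0.90), and CAOV-3 had 1.23. LAP3, an aminopeptidase, went from 10.04 to 10.73 (0.69), and CAOV-3 had 1.53. Genes of the epithelial surface were among them: the serine protease prostasin (PRSS8) went from 6.36 to 7.17 (0.81), the chloride cotransporter SLC12A2 from 7.23 to 8.02 (0.79), and the tight junction genes CLDN1 from 7.21 to 7.97 (0.76) and CLDN16 from 7.58 to 8.20 (0.62). For PRSS8 and CLDN16 the other 3 lines stayed between -0.13 and 0.13. IL1R2, a decoy receptor for interleukin 1, went from 6.62 to 7.34 (0.71). POM121L2 (0.65) and AP1G2 (0.61) complete the 9. None of these differences was tested within the line.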
